A study of Homo sapiens with 6 samples.

Results

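Aminoacyl-tRNA synthetases, the enzymes that attach each amino acid to its transfer RNA, were followed in U251 cells, an established human glioma line, carrying a hairpin against CPVL (shCPVL) or a control hairpin (shCtrl). Both groups had been given lentiviral short hairpin RNA, 3 arrays each, and the labels name neither the hairpin sequence nor separate cultures, so the p-values reflect only how far these arrays scatter, possibly for technical reasons. In such bulk RNA, fewer cells of a kind and less RNA per cell cannot be told apart. The 35 synthetase genes were taken by name and located through the Entrez identifiers of the annotation, 19 cytosolic and 16 mitochondrial, out of 18712 genes measured as log2 RMA values. Each gene was represented by its brightest probe set over the 6 arrays, and all 35 had both group means above the mean of the background probe sets. A log2 change is the shCPVL mean minus the shCtrl mean, and a gene was called when its limma p-value, adjusted by Benjamini-Hochberg over all 18712 genes, was under 0.05.

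Synthetases of the cytosol and of the mitochondrion are for the most part separate nuclear genes, named with the suffix 1 or 2, and the mitochondrial enzymes are imported to serve the small translation system of that organelle. GARS1 and KARS1 make the enzyme of both compartments, EPRS1 joins the glutamate and proline enzymes in a single polypeptide, and no separate mitochondrial glutamine enzyme exists: EARS2 charges that transfer RNA with glutamate, which the GatCAB amidotransferase then converts. Several cytosolic enzymes are built into a multisynthetase complex. When amino acids are scarce, the transcription factor ATF4 raises many cytosolic synthetase genes, and WARS1 is in addition a classical interferon gamma target.

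The knockdown target CPVL, a serine carboxypeptidase, fell to 50.5% of its shCtrl level (log2 change −0.99, standard error, SE, 0.07; limma adjusted p = 8.3e-05), lower on every shCPVL array than on any shCtrl array. Pearson correlations across probe sets were 0.9974 to 0.9986 within a group and 0.9918 to 0.9930 between groups. All 7 astroglia and glioma markers lay above the background mean, and 3 of them fell, with summed log2 values of 75.2 to 75.5 in shCPVL and 77.7 to 77.9 in shCtrl. Of 20 markers of microglia, neurons, oligodendrocytes, endothelium and epithelium, 3 rose and 0 fell. PTPRC, a leukocyte marker, and EPCAM, an epithelial one, were below the background mean in both groups, each the only 1 of its list. KRT18, another epithelial marker, averaged 9.23 in shCPVL and 9.00 in shCtrl, and the neuronal marker NEFL 13.89 and 13.54. Both were among the 3 that rose. Markers of other lineages were thus not all at background. Hybridisation controls, RNA added to each sample, averaged 11.26 ± 0.11 in shCPVL and 10.95 ± 0.07 in shCtrl (SD, n = 3 each). Their part in the results below was not tested. The difference between the 3' and 5' probe sets of GAPDH, a measure of RNA integrity, averaged −0.063 in shCPVL and −0.055 in shCtrl, within the spread of the arrays.

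Across the family 4 genes rose, 6 fell and 25 were not called. The cytosolic cysteine and serine enzymes, the glycine enzyme and the mitochondrial histidine enzyme were higher. The beta subunit of the cytosolic phenylalanine enzyme, the cytosolic valine enzyme and the mitochondrial cysteine, asparagine, glutamate and arginine enzymes were lower. GARS1, the glycine gene, serves both compartments and was counted, like KARS1, with the cytosolic class. The changes were small, from −0.48 for FARSB to 0.48 for CARS1, with a median of 0.003 beside −0.007 over all genes. The called share was 28.6% of the members, against 20.1% of all genes (8.45% higher and 11.6% lower) and 33.2% of the 9598 genes at least as bright as the dimmest member (13.3% higher and 19.8% lower), a comparison added after the data were seen. The share called in the family was thus near that of these 9598 brighter genes. They share a lower limit with the members and were not matched to them in brightness. The groups did not overlap in 21 members, 11 above and 10 below. Among all genes 35.9% did not overlap (16.1% above and 19.8% below), and among the brighter genes 56.3%.

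**Figure D1:**
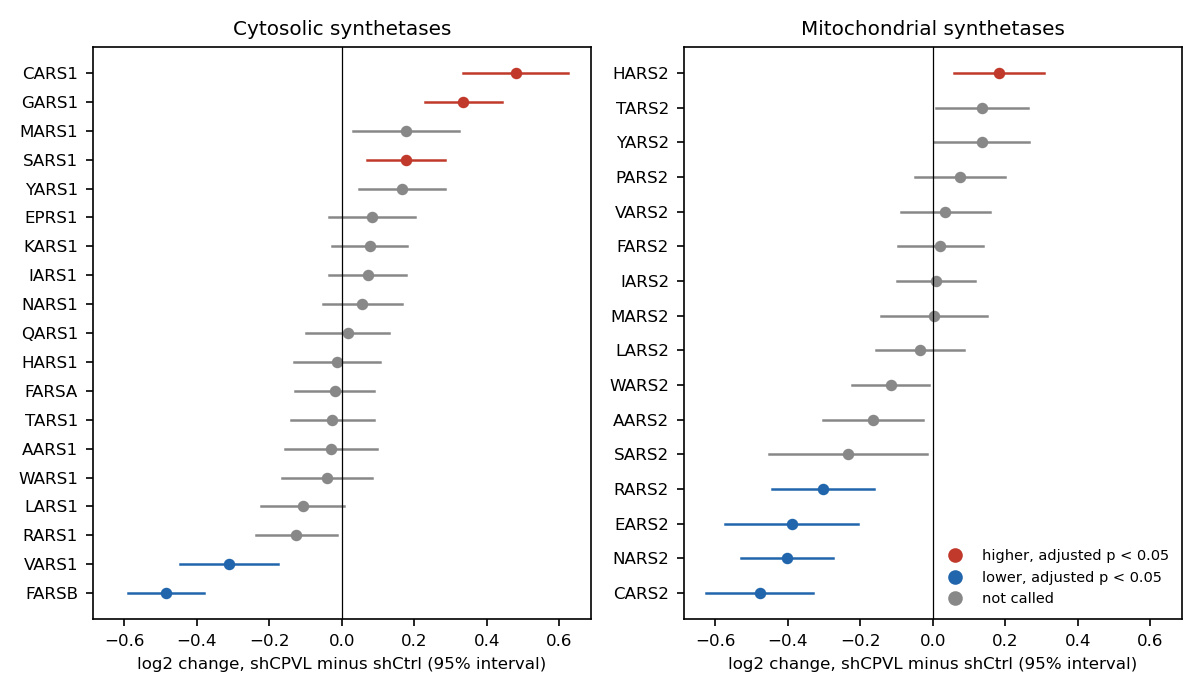
Log2 change of each synthetase, shCPVL minus shCtrl, with its 95% interval from limma; cytosolic enzymes on the left and mitochondrial ones on the right, coloured by call. CARS1 and FARSB mark the ends of the cytosolic range at 0.48 and −0.48, and 4 mitochondrial enzymes lie between −0.48 and −0.30.

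CARS1, which charges cysteine in the cytosol, was the member with the greatest rise. Its log2 values were 9.31, 9.31 and 9.28 in shCPVL, against 8.81, 8.94 and 8.72 in shCtrl. Every shCPVL array stood above every shCtrl array, and the rise was 0.48 (SE 0.06, limma adjusted p = 0.00133), or 1.39-fold with a 95% interval of 1.26 to 1.54. The size of this change exceeded that of 95.9% of all genes. All 3 CARS1 probe sets were called higher, by 0.46 to 0.51. The authors' deposited table, which names no genome build, places the CARS1 probe set on the minus strand of chromosome 11 (3022158 to 3069232).

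GARS1 and SARS1, the glycine and serine enzymes, rose by less. GARS1 had 11.88, 11.91 and 11.89 in shCPVL, against 11.59, 11.57 and 11.53 in shCtrl, a rise of 0.33 (SE 0.05, limma adjusted p = 0.00165) without overlap, and its other probe set rose by 0.30. SARS1, measured by a single probe set, had 10.69, 10.74 and 10.74 in shCPVL, against 10.54, 10.57 and 10.52 in shCtrl. The groups of SARS1 did not overlap either, and its rise of 0.18 (SE 0.05, limma adjusted p = 0.032) was 1.13-fold. The SARS1 call was lost when any array except shCPVL replicate 1 was left out (0.16 to 0.19 over all 6 removals).

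MARS1 and YARS1, the methionine and tyrosine enzymes, had differences of the same size as SARS1 without passing. MARS1 had 9.67, 9.74 and 9.62 in shCPVL, against 9.46, 9.61 and 9.43 in shCtrl (0.18, SE 0.06, limma adjusted p = 0.0925). YARS1 had 10.17, 10.29 and 10.23 in shCPVL, against 10.07, 10.09 and 10.03 in shCtrl (0.17, SE 0.05, limma adjusted p = 0.0578). In both genes all shCPVL arrays lay above all shCtrl arrays, and the adjusted p of YARS1 lay just outside the threshold.

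FARSB had the greatest fall of the family. It encodes the beta subunit of cytosolic phenylalanyl-tRNA synthetase, whose alpha subunit is FARSA. FARSB had 10.20, 10.16 and 10.20 in shCPVL, against 10.70, 10.66 and 10.66 in shCtrl, a change of −0.48 (SE 0.05, limma adjusted p = 0.000285). FARSA had 9.37, 9.39 and 9.31 in shCPVL, against 9.40, 9.35 and 9.38 in shCtrl, so that the alpha subunit differed by −0.02 with a 95% interval of −0.13 to 0.09. Set against each other on the same arrays, FARSB minus FARSA was 0.83 ± 0.06 in shCPVL and 1.30 ± 0.02 in shCtrl (SD, n = 3 each; two-sided exact permutation p = 0.1, the smallest that 3 against 3 arrays allow). The size of the FARSB change depended on the probe set. Beside the brightest probe set, 3 others were called lower by 0.24 to 0.30, and a dim one, with a mean log2 value of 5.33, was not called (−0.10).

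VARS1, the valine enzyme, which in the cytosol is bound to elongation factor complexes, fell as well. Its values were 9.37, 9.29 and 9.35 in shCPVL, against 9.65, 9.73 and 9.56 in shCtrl, a change of −0.31 (SE 0.06, limma adjusted p = 0.00745). All 4 VARS1 probe sets were lower on every shCPVL array, by 0.19 to 0.31, and 2 of them were called in the fit over single probe sets. Of 6 elongation factor genes 1 fell and 0 rose. This was EEF1B2, an exchange factor subunit of those complexes (12.90, 12.93 and 12.89 in shCPVL, against 13.11, 13.08 and 13.06 in shCtrl; −0.18, limma adjusted p = 0.0294). The other subunits, EEF1D and EEF1G, were each at −0.06, and EEF1A1, EEF1A2 and EEF2 lay between 0.02 and 0.06, all uncalled.

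The 7 synthetases that belong to the multisynthetase complex (EPRS1, LARS1, MARS1, QARS1, IARS1, RARS1 and KARS1) included no called gene by limma, although 2 had an unadjusted p under 0.05 (MARS1 and RARS1). This count depended on the fit: with an intensity trend in the variance, MARS1, LARS1 and RARS1 passed (limma adjusted p = 0.013, 0.024 and 0.01). Under that fit 26.1% of all genes were called. MARS1 also passed after another quantile normalization (limma adjusted p = 0.026), where 23.5% of all genes were called. Without the dimmest 40% of genes MARS1 and RARS1 passed (limma adjusted p = 0.037 and 0.042), where 40.6% were called. In the main fit the changes of the 7 genes ran from −0.13 to 0.18, with a median of 0.071. RARS1, the arginine enzyme, had 10.80, 10.85 and 10.78 in shCPVL, against 10.91, 10.98 and 10.93 in shCtrl (−0.13, limma adjusted p = 0.116), without overlap. The 3 scaffold genes of the complex were not called either: AIMP1 was at 0.12, AIMP2 at −0.04 and EEF1E1 at −0.03. Outside the complex, 3 of the 12 cytosolic enzymes rose and 2 fell. The called shares were 0% inside and 41.7% outside, beside 20.1% of all genes and 33.2% of the brighter genes. Whether the shares differ between members inside and outside the complex was not tested.

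**Figure D2:**
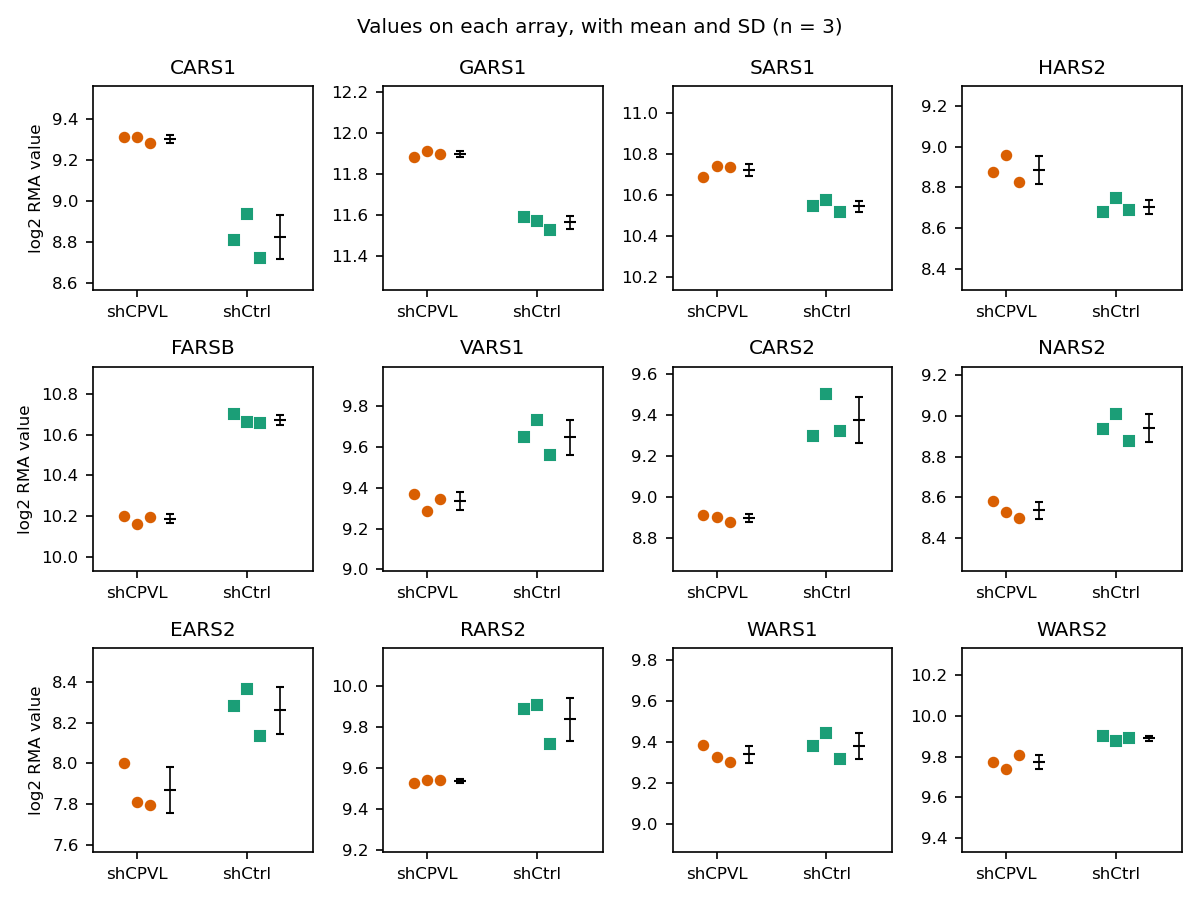
Log2 RMA values on each array for the 10 called synthetases and for the tryptophan enzymes WARS1 and WARS2; circles are shCPVL, squares shCtrl, and bars give the mean and SD of 3 arrays. Each panel spans 1 log2 unit; the groups separate in all 10 called genes and mix in WARS1.

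Of the 16 mitochondrial enzymes 4 fell, 1 rose and 11 were not called, with a median of −0.016. Called lower were 11.6% of all genes and 19.8% of the brighter genes. As many mitochondrial enzymes had a positive as a negative difference (8 each). Whether their calls differ from those of the cytosolic enzymes was not tested. CARS2, the mitochondrial cysteine enzyme, had 8.91, 8.90 and 8.87 in shCPVL, against 9.30, 9.50 and 9.32 in shCtrl. It fell by 0.48 (SE 0.06, limma adjusted p = 0.00149), to 0.718 of the shCtrl level, with no overlap. A second CARS2 probe set fell by 0.52, and a dim one, at a mean log2 value of 5.41, was at −0.20 and not called. The authors' deposited table places the CARS2 probe set on the minus strand of chromosome 13 (111293756 to 111318097).

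NARS2 charges mitochondrial asparagine and EARS2 glutamate. NARS2, with a single probe set, had 8.58, 8.53 and 8.50 in shCPVL, against 8.93, 9.01 and 8.88 in shCtrl (−0.40, SE 0.05, limma adjusted p = 0.00159). EARS2 had 8.002, 7.810 and 7.798 in shCPVL, against 8.279, 8.363 and 8.136 in shCtrl (−0.39, SE 0.08, limma adjusted p = 0.0107). Both were below shCtrl on every shCPVL array, and all 4 EARS2 probe sets were called lower, by 0.23 to 0.39. The GatCAB genes, which act after EARS2 on the glutamine transfer RNA, were not called: QRSL1 was at 0.05, GATB at −0.18 and GATC at 0.03.

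RARS2, the mitochondrial arginine enzyme, had 9.52, 9.54 and 9.54 in shCPVL, against 9.89, 9.91 and 9.72 in shCtrl, and fell by 0.30 (SE 0.06, limma adjusted p = 0.0102). SARS2, the serine enzyme, had 7.31, 7.49 and 7.70 in shCPVL, against 7.79, 7.72 and 7.69 in shCtrl (−0.23, SE 0.09, limma adjusted p = 0.131). RARS2 separated the groups, while shCPVL replicate 3 of SARS2 overlapped shCtrl. Without that array the SARS2 change was −0.34 and passed (limma adjusted p = 0.018). Without shCPVL replicate 1 it was −0.14 and did not pass (limma adjusted p = 0.3). These were the ends of the range over removals of single arrays.

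HARS2, the mitochondrial histidine enzyme, was the single mitochondrial member called higher, and only just. It had 8.88, 8.96 and 8.82 in shCPVL, against 8.68, 8.75 and 8.69 in shCtrl (0.18, SE 0.05, limma adjusted p = 0.0495). The call was lost under 10 of 15 alternatives, among them centring on the array median (limma adjusted p = 0.074) and the removal of any array except shCPVL replicate 3. HARS2 lies head to head with HARS1, the cytosolic histidine enzyme: their RefSeq start sites on chromosome 5 of GRCh38.p14 are 85 bases apart on opposite strands. HARS1 had 10.09, 10.10 and 10.06 in shCPVL, against 10.08, 10.16 and 10.04 in shCtrl, a difference of −0.01. On the same arrays HARS2 minus HARS1 was −1.20 ± 0.05 in shCPVL and −1.39 ± 0.03 in shCtrl (SD, n = 3 each), without overlap (exact permutation p = 0.1, the smallest possible).

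The 11 mitochondrial enzymes that were not called ranged from −0.23 for SARS2 to 0.13 for TARS2 and YARS2. AARS2 was at −0.16 and WARS2 at −0.12, both lower on every shCPVL array. TARS2, YARS2 and PARS2 were higher on every shCPVL array, by 0.13, 0.13 and 0.08. LARS2, MARS2, IARS2, FARS2 and VARS2 overlapped and lay between −0.04 and 0.03. Among 9 other genes of mitochondrial translation 1 rose, the initiation factor gene MTIF3 (0.22, SE 0.06, limma adjusted p = 0.032), and 1 fell, MTFMT, which formylates the initiator transfer RNA (−0.24, SE 0.06, limma adjusted p = 0.0294). The elongation factor genes TUFM (−0.14), TSFM (−0.04) and GFM1 (0.13) were among the 7 not called.

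As a description, the mean over the 19 cytosolic enzymes was 10.53, 10.53 and 10.51 on the shCPVL arrays, against 10.50, 10.54 and 10.46 on the shCtrl arrays. The mean over the 16 mitochondrial enzymes was 8.60, 8.60 and 8.61 in shCPVL, against 8.70, 8.73 and 8.67 in shCtrl. The cytosolic means overlapped between the groups and the mitochondrial means did not. No test was made of these means, because the genes were chosen with earlier results of these data known, and levels of different probe sets cannot be set against each other.

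Where a cytosolic and a mitochondrial gene serve the same amino acid, their difference was followed on each array, in 17 pairs. In 5 pairs the cytosolic enzyme gained on the mitochondrial one on every shCPVL array, in 4 it lost, and in 8 the groups overlapped. Among single genes the groups did not overlap in 35.9% of all and in 56.3% of the brighter ones. No such share was taken over other pairs of genes. Cysteine was the pair with the greatest shift. CARS1 minus CARS2 was 0.40, 0.41 and 0.41 in shCPVL, against −0.49, −0.57 and −0.60 in shCtrl, a shift of 0.96 (SE 0.03), since the 2 genes were called in opposite directions. EPRS1 against EARS2 shifted by 0.47 (SE 0.08), NARS1 against NARS2 by 0.46 (SE 0.02), SARS1 against SARS2 by 0.41 (SE 0.105) and RARS1 against RARS2 by 0.18 (SE 0.06). The shift went the opposite way for FARSB against FARS2 (−0.51, SE 0.03), VARS1 against VARS2 (−0.35, SE 0.04), HARS1 against HARS2 (−0.19, SE 0.03) and TARS1 against TARS2 (−0.16, SE 0.06). The TARS1 shift rests on its brightest probe set (−0.03). Its 2 other probe sets were at 0.15 each, beside 0.13 for TARS2. The exact permutation p was 0.1 for each of these 9 pairs, the smallest that 3 against 3 arrays can give, and 0.189 after adjustment over the 17 pairs, so this test cannot pass the threshold.

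**Figure D3:**
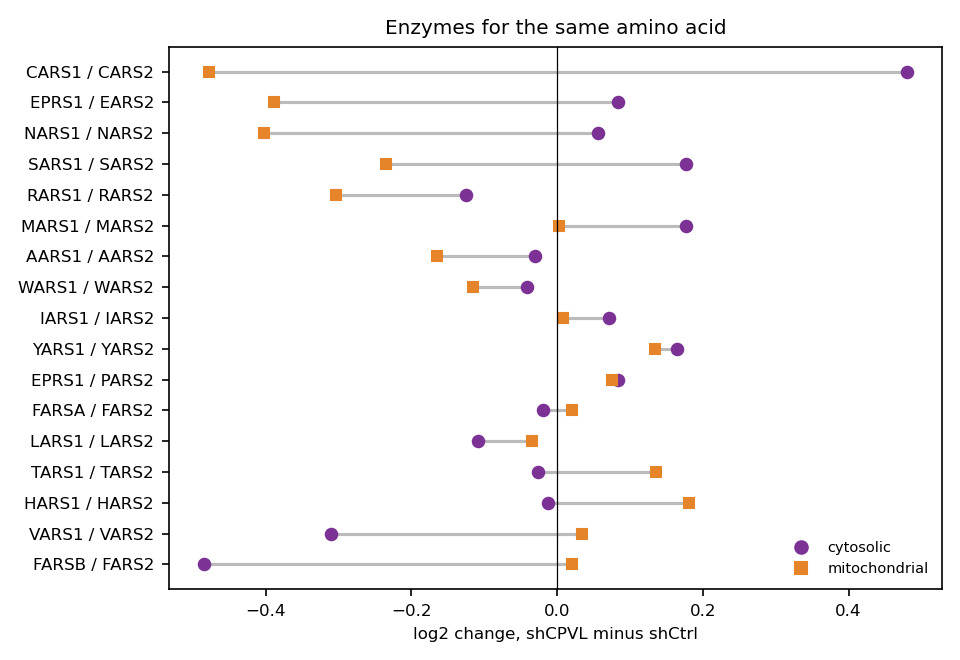
Log2 changes, shCPVL minus shCtrl, of the cytosolic (circle) and mitochondrial (square) enzyme for the same amino acid, in 17 pairs ordered by the shift between them. The cysteine pair at the top spans from −0.48 for CARS2 to 0.48 for CARS1, and the phenylalanine beta subunit at the bottom runs the other way.

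WARS1, the cytosolic tryptophan enzyme, did not move with the interferon genes. Its log2 values were 9.39, 9.33 and 9.30 in shCPVL, against 9.38, 9.45 and 9.32 in shCtrl. The groups overlapped, and the difference was −0.04 (SE 0.05, limma adjusted p = 0.703) with a 95% interval of −0.17 to 0.08, or 0.891 to 1.06 times the shCtrl level. Its other probe sets gave 0.06, 0.13 and, for a dim one at a mean log2 value of 3.97, −0.10, none called. The sign of the WARS1 value therefore depended on the probe set: it was 0.096 with the median of the 4. WARS1 stood inside the range of the other 18 cytosolic enzymes, of which 3 rose and 2 fell around a median of 0.036, and next to AARS1 (−0.03) above it and LARS1 (−0.11) below it. The called share of those 18 was 27.8%, beside 20.1% of all genes and 33.2% of the brighter genes. WARS2, the mitochondrial tryptophan enzyme, had 9.77, 9.74 and 9.81 in shCPVL, against 9.90, 9.88 and 9.89 in shCtrl (−0.12, limma adjusted p = 0.128). WARS1 minus WARS2 averaged −0.43 ± 0.06 in shCPVL and −0.51 ± 0.07 in shCtrl (SD, n = 3 each; two-sided exact permutation p = 0.2).

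On the same arrays 12 of 13 interferon genes rose and 0 fell, with a median of 1.92, a pattern known beforehand from these data. The other gene, IDO1, was like WARS1 not called (limma adjusted p = 0.241). It lay near the background mean in both groups, at 5.07 in shCPVL and 4.90 in shCtrl. Among genes above the background mean in both groups the greatest differences were those of IFIT1 (4.09), ISG15 (3.88) and OAS1 (3.25), antiviral effectors. MX1, another, had 8.93, 8.78 and 8.81 in shCPVL, against 4.21, 4.12 and 4.36 in shCtrl, where it was below the background mean, so no difference is given for it. IRF1, a transcription factor induced by interferon gamma and named after its values were seen, had 8.30, 8.29 and 8.30 in shCPVL, against 7.82, 7.95 and 7.71 in shCtrl, a rise of 0.47 (SE 0.07, limma adjusted p = 0.00178). The upper end of the WARS1 interval, 0.08, lay below the lower end for IRF1, 0.32, the called interferon gene with the least rise. The difference between WARS1 and these genes was not itself tested.

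RefSeq lists 2 start sites of WARS1 on chromosome 14 of GRCh38.p14, and the 250 bases before each are shown because interferon response letters occur before one of them only. Promoter windows of 300 bases, 250 before to 50 after a start, were searched on both strands for GAAA, 2 bases of any kind and GAAA again (interferon-stimulated response element) and TTCNNNGAA (gamma-activated site), which do not overlap here; capitals mark matches. Both sequences run 5′ to 3′ on the minus strand.
WARS1 upstream start (chr14:100376328-100376577): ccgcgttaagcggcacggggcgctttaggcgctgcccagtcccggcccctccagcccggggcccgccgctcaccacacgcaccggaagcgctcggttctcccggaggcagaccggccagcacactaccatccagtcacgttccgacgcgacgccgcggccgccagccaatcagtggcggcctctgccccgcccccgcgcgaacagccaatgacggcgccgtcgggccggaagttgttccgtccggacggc
WARS1 downstream start (chr14:100375348-100375597): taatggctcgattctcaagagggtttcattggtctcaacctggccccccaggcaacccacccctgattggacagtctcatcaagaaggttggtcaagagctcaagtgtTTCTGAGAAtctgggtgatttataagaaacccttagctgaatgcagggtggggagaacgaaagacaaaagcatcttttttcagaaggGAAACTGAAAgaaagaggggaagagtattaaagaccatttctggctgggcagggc
The interferon-stimulated response element occurred in a window of 2 of the 30 members that RefSeq's table held (6.67%; WARS1 and EARS2) and of 4.38% of all 27305 genes in it. TTCNNNGAA occurred in 5 members (16.7%), namely CARS1, PARS2, TARS1, WARS1 and WARS2, and in 9.38% of genes.

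The amino acid response was the other programme set beside the synthetases. Of 20 measured genes of that list 11 rose and 2 fell, with a median of 0.307, again a pattern known beforehand. DDIT3, a stress transcription factor, rose by 0.66 (SE 0.09), ASNS, the asparagine synthetase, by 0.63 (SE 0.05), and the cystine transporter subunits SLC7A11 and SLC3A2 by 0.63 each (SE 0.06 and 0.05; limma adjusted p at most 0.00169 in these 4). ATF4 itself, named after its values were seen, had 11.94, 11.95 and 11.95 in shCPVL, against 11.65, 11.66 and 11.59 in shCtrl (0.32, limma adjusted p = 0.00233).

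Of the 12 cytosolic synthetases often listed as ATF4 targets, 3 rose (CARS1, GARS1 and SARS1) and 0 fell, with a median of 0.077. Of the other 7 cytosolic enzymes 0 rose and 2 fell (FARSB and VARS1), with a median of −0.020. The called shares were 25% of the listed targets and 28.6% of the other 7, and the difference between them was not tested. Beside these, 20.1% of all genes and 33.2% of the brighter genes were called. The 9 listed targets that were not called ran from −0.11 for LARS1 to 0.18 for MARS1 and included AARS1 (−0.03), TARS1 (−0.03), NARS1 (0.06), IARS1 (0.07) and EPRS1 (0.08). TARS1, the threonine enzyme, gave unlike values by probe set: the brightest overlapped between the groups, while 2 others were at 0.15 each and higher on every shCPVL array without being called (limma adjusted p = 0.071 and 0.077 over all probe sets). TARS3, a second cytosolic threonine enzyme, was at −0.23 (limma adjusted p = 0.156), and XPOT, the exporter of transfer RNA from the nucleus, at −0.32 (10.28, 10.16 and 10.03 in shCPVL, against 10.42, 10.35 and 10.67 in shCtrl; limma adjusted p = 0.0547).

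Promoters of these genes were searched for TGATGNAA, the C/EBP-ATF composite element that ATF4 binds. It occurred in a window of 8 of 30 members (26.7%), 7 of them cytosolic and all 7 on the list of ATF4 targets, beside 4.46% of all genes. The 8 stretches of 30 bases are shown, 5′ to 3′ on the strand that spells TGATG, with the element in capitals, to set the letters beside the values (RefSeq, GRCh38.p14).
CARS1 (chr11:3057407-3057436, plus): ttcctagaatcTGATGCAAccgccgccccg
GARS1 (chr7:30594834-30594863, minus): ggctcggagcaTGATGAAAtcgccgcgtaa
MARS1 (chr12:57488053-57488082, minus): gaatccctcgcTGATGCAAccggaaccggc
IARS1 (chr9:92293692-92293721, plus): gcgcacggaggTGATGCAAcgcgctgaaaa
NARS1 (chr18:57621804-57621833, minus): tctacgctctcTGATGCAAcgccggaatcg
TARS1 (chr5:33440956-33440985, minus): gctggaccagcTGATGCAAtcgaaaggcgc
AARS1 (chr16:70289675-70289704, plus): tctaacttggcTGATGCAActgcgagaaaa
YARS2 (chr12:32756076-32756105, minus): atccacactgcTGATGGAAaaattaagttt
Of these 8 genes 2 rose, CARS1 and GARS1, and 0 fell. The called share was 25%, beside 20.1% of all genes and 33.2% of the brighter genes. The others lay between −0.03 and 0.18, with a median of 0.102 for all 8. Whether the element goes with the changes was not tested. SARS1, which rose, had no match in its windows. The elements of CARS1 and MARS1 span their start sites, and that of GARS1 lies at −33 to −26 from the second start listed for it. The E-box CACGTG occurred in 4 members (13.3%; CARS2, EARS2, IARS1 and MARS2) and in 8.77% of all genes. AARS2, LARS1, VARS1, VARS2 and YARS1 were not among the genes searched.

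**Figure D4:**
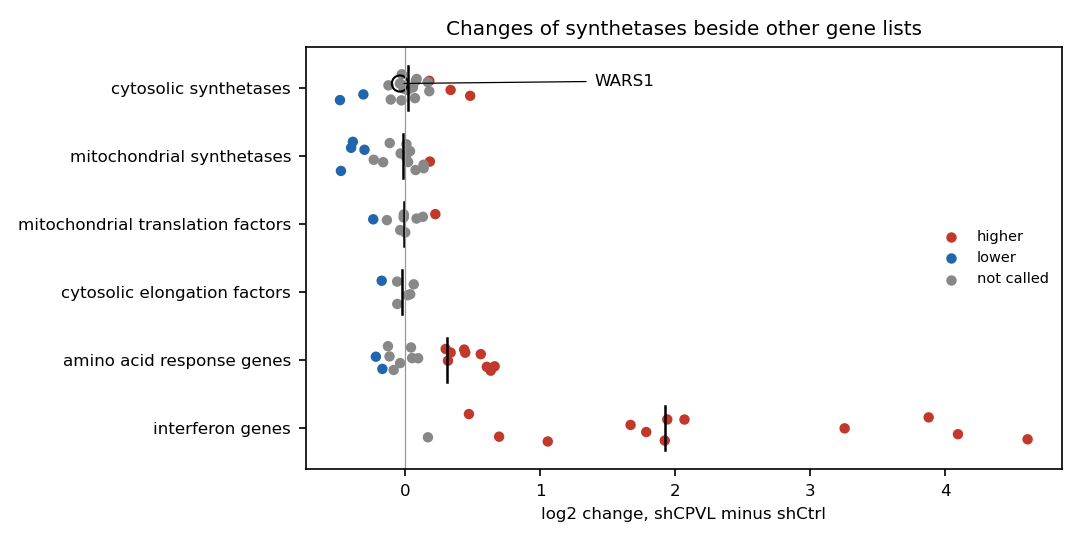
Log2 changes, shCPVL minus shCtrl, of single genes in the 2 synthetase classes and 4 other lists; black bars are medians, colours give the call, points are spread vertically at random and WARS1 is ringed. Both synthetase classes sit around 0, with medians of 0.016 and −0.016, beside 0.307 for amino acid response genes and 1.92 for interferon genes.

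Probe sets of a gene mostly moved alike. The 35 genes had 88 probe sets with a single identifier, of which 6 were called higher and 14 lower in a fit over all probe sets, where 18.5% of all probe sets were called. In 3 genes (FARSB, VARS1 and CARS2) some probe sets passed and others did not, and no gene had probe sets called in opposite directions. In that fit HARS2 did not pass (limma adjusted p = 0.06). Among editing and quality control genes, DTD1, a deacylase that frees transfer RNA from D-amino acids, fell (10.16, 10.10 and 10.12 in shCPVL, against 10.42, 10.37 and 10.31 in shCtrl; −0.24, limma adjusted p = 0.0115), and DTD2, PTRH2 and ANKRD16 lay between 0.02 and 0.10, uncalled.

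**Figure D5:**
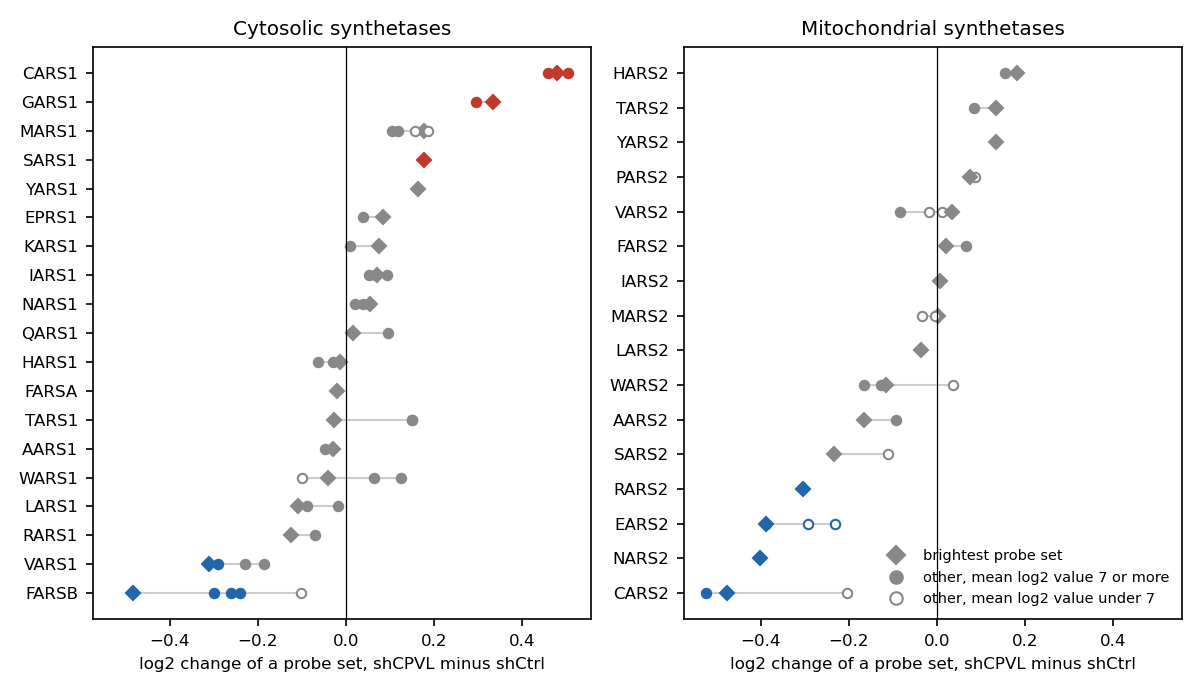
Log2 change, shCPVL minus shCtrl, of every single-identifier probe set of each synthetase; diamonds are the brightest probe set of the gene, open symbols have a mean log2 value under 7, and colours give the call in the fit over all probe sets (red higher, blue lower, grey not called). The probe sets of CARS1 lie together at 0.46 to 0.51, while those of FARSB spread from −0.48 to −0.10 and those of WARS1 fall on both sides of 0.

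The authors' deposited table, on the same probe sets, gave an FDR under 0.05 to 5 cytosolic enzymes higher and 4 lower and to 1 mitochondrial enzyme higher and 4 lower. The members in its count beyond those called here were MARS1 and YARS1 (higher) and LARS1 and RARS1 (lower). Their log2 changes in the authors' deposited table were 0.18, 0.17, −0.11 and −0.13. The share of all probe sets with such an FDR in that deposited table is not given here, so its counts have no background beside them.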

How the data were processed

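The authors deposited log2 RMA values of 49395 probe sets (RMA, per the submitters' processing notes; version and genome build not given in the sources used here). RMA equalises the distributions of the arrays, so a change is read against the other probe sets, and differences of dim or very bright probe sets are compressed. The authors also deposited their own comparison, with log2 fold changes, linear fold ratios, signed fold scores and p-values. Entrez identifiers from it were turned into symbols with RefSeq's GRCh38.p14 table; 46726 probe sets with 1 identifier gave 18712 genes, with no filter on low values. Genes were fitted with limma 3.58.1 in R 4.3.3 (lmFit, eBayes without trend, two-sided), after the same fit had been tested on simulated data. Errors are SD over 3 arrays, or limma's SE. The number of arrays limits the precision. Single within-array differences had an exact permutation test.

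The members, lists and tests were chosen with earlier results of these data known. Values on every array are given for WARS1, the 8 other cytosolic and 5 mitochondrial members with the greatest change, and members whose probe sets differ in call; HARS2 was added because it was called, and FARSA, HARS1 and WARS2 as partners in a comparison. AARSD1 and CBS had no probe set with a single identifier. Alternatives were 2 normalizations, a replicate block, 2 variance models, 3 ways of taking probe sets, 2 filters on low values and the removal of each array. Some genes of these lists are not reported here by name.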

Additional observations from a re-analysis of the deposited data

How the results depend on the processing

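CARS1, GARS1, VARS1, CARS2, NARS2, EARS2 and RARS2 held their call and direction under all 15 alternatives that could be run for them, and FARSB under 15 of 16. The exception was the use of probe sets without the suffix x_at, s_at or a_at, which left 4 cytosolic and 6 mitochondrial members, none called, with medians of −0.060 and −0.074 and FARSB at −0.101. The 3 cytosolic genes called higher became 5 after another quantile normalization (then with 2 mitochondrial), with an intensity trend (then with 4 lower, and 6 mitochondrial lower in place of 4) and without the dimmest 40% of genes (then with 3 lower, and 6 mitochondrial lower). The share of all genes called was 23.5%, 26.1% and 40.6% under these settings, in that order, beside 20.1%. The mitochondrial count of 1 became 0 with median centring, the replicate block, robust variances, and the mean or median of probe sets. With that median the class medians were 0.056 and −0.043. Leaving out single arrays gave 2 to 3 cytosolic genes higher and 2 lower, 0 to 1 mitochondrial higher and 4 to 5 lower, and medians of −0.014 to 0.041 and −0.037 to −0.008. WARS1 stayed between −0.074 and −0.008 without single arrays but was 0.013 when its probe sets were averaged and 0.096 at their median. Uncalled members near 0 changed sign with the quantile normalization (FARSA 0.009, HARS1 0.015), the mean of probe sets (TARS1 0.091, MARS2 −0.012, VARS2 −0.014) and their median (TARS1 0.105, MARS2 −0.004, VARS2 −0.051). Without single arrays sign changes were seen in AARS1 (−0.074 to 0.005), FARSA (−0.034 to 0.003), HARS1 (−0.039 to 0.022), QARS1 (−0.014 to 0.041), FARS2 (−0.016 to 0.039), IARS2 (−0.014 to 0.021), MARS2 (−0.048 to 0.037) and VARS2 (−0.003 to 0.064). The cause of these shifts was not tested. Deviations from the group means correlated at −0.28, 0.116 and 0.262 for equal replicate numbers, and from −0.458 to 0.404 for unequal ones. Deviations within a group cancel out, so these correlations depend on each other and cannot settle whether the arrays were paired. The replicate block left SARS1 at 0.177 (limma adjusted p = 0.071) and HARS2 at 0.181 (limma adjusted p = 0.068) uncalled, with 3079 genes called in place of 3757.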

Other observations

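A probe set that the annotation gives to HARS1 together with a second gene aligned, in the authors' deposited table, first to chromosome 1 from 569224 to 569754 and not to the HARS1 locus on chromosome 5. It was bright, with 13.972, 13.963 and 13.963 in shCPVL, against 13.996, 13.995 and 13.982 in shCtrl (−0.03), while the 3 probe sets with HARS1 as sole identifier had means of 8.905 to 10.088. It was left out of the HARS1 values, as were 3 probe sets shared with another gene, 1 of TARS2 (0.12) and 2 of VARS2 (0.03 and 0.05), none of them called.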
